A study of Mus musculus with 4 samples.

Results

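The TRIM ubiquitin ligase family was followed in liver cells of mice that lack PNPase, the RNA exonuclease encoded by Pnpt1, in hepatocytes. Members were all probes whose RefSeq accession, without its version, belongs to a mouse gene named Trim followed by digits and at most 1 letter. The rule used names alone and no measured value. It found 78 of 41174 probes (0.189%), and these represent 51 of the 16358 genes named on the array. TRIM proteins share an N-terminal RING finger, B-box and coiled coil, and most act as E3 ubiquitin ligases, which attach ubiquitin to chosen proteins. The C-terminal domain sets the subfamilies, and the PRY-SPRY domain is the most frequent. Many members act in antiviral defence, as sensors of viral capsids or antibody-coated virus or as modifiers of the RNA sensing pathway, and several are themselves induced by interferon. Others repress transcription on chromatin, bind microtubules or RNA, or work in muscle and neurons.

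The groups were HepKO mice, which carried Pnpt1 fl/fl alleles and 1 Albumin-Cre allele (Albumin-Cre/wt), and WT mice, which carried the same Pnpt1 fl/fl alleles without Cre. All 4 mice were C57BL/6J, and the labels' breeding scheme names the allele as neo-fl. Albumin-Cre acts in cells of the hepatocyte lineage. 1 HepKO mouse was matched with 1 WT mouse by litter, sex and age, at 12.29 weeks for the pair labelled male and 4.29 weeks for the pair labelled female. For the male HepKO mouse the labels also give another age. Each pair was hybridised on 2 two-colour arrays with the dyes exchanged, so there were 2 independent pairs (n = 2). RNA came from washed cell pellets of collagenase-perfused livers and the protocol names no sort, so the cells are liver cell preparations in which, as in any bulk sample, more cells of a type and more RNA per cell cannot be told apart.

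Between 53.6% and 58.6% of probes were well above background in the HepKO channel and 48.2% to 54.5% in the WT channel, and no spot was saturated. None of 17 hepatocyte markers was below background on all arrays of a genotype. Their summed level ranged over 1261063 to 1820143 in HepKO channels and 1260278 to 1646426 in WT channels. The targeted gene gave no check of the genotype. Pnpt1 had log2 ratios of -0.10 ± 0.19 (adjusted p = 0.747) and -0.52 ± 0.13 (adjusted p = 0.08) at its 2 probes, and the sources used here do not place these relative to the deleted part. The sex-linked genes went against the labelled sex: in both genotypes Ddx3y, Eif2s3y and Kdm5d exceeded background on both arrays in the pair labelled female and on neither in the other, and Xist did the reverse. Zfy2, also Y-linked, did not separate the pairs. The pairs are called male and female by their labels below, and every ratio was formed within a pair. Between the pairs, slide, age and sex cannot be told apart.

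Unless a level is named, a value is the log2 ratio of HepKO over WT, given as the 2-pair mean ± its moderated SE from limma (n = 2 pairs). A level is a log2 normalised intensity of 1 channel, and levels are compared only within a probe. The brightest tested probe stands for a gene, and a gene was called at a Benjamini-Hochberg adjusted p under 0.05 over all 22807 probes tested. Of the 51 Trim genes, 34 had a tested probe, and 7 of these passed the filter on dim probes through the HepKO channels alone. None passed through the WT channels alone. The other 17 genes were not tested. Of them Trim7, Trim9, Trim10, Trim15, Trim17, Trim29, Trim31, Trim42, Trim50, Trim52, Trim54, Trim60, Trim61, Trim65, Trim66 and Trim80 had no probe that passed the filter, and Trim46 had a probe that lost 1 array to an outlier spot. In 14 of the 17 no probe exceeded background on any array.

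Trim genes were called higher in HepKO more often than the array as a whole, and none was called lower. Of 34 tested genes 11 (32.4%) were called higher, against 10.2% of the 11495 named genes tested, while 2.83% of all genes were called lower. The called genes were Trim30a, Trim30d, Trim47, Trim12a, Trim12c, Trim25, Trim34a, Trim26, Trim59, Trim6 and Trim35. Of these, Trim30a, Trim30d, Trim12a, Trim12c, Trim34a and Trim6 are neighbours in 1 run on chromosome 7. Their calls may not be independent, so the share is not spread evenly over the family. The median ratio of the 34 genes was 0.47, against 0.08 over all genes. Among probes, 13 of 53 (24.5%) were higher, against 7.33% of all probes, and none lower, against 2.99%. Because dim genes can pass the filter through the HepKO channels alone, the count was also taken over genes well above background in both genotypes on all arrays. There 9 of 27 Trim genes (33.3%) were higher, against 9.8% of all such genes, of which 3.2% were lower. The Rnf genes, another large family of RING finger proteins, had 2 of 56 genes (3.57%) higher and a median of 0.19. These shares are descriptions, and the excess of Trim calls was not tested.

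The calls lay close to the threshold, since 2 pairs leave 1 residual degree of freedom. With the background model fitted on all spots, outliers included, 0 Trim genes were called by limma (12 at an unadjusted p under 0.05), and likewise 0 without the filter on dim probes (17 unadjusted). Without male pair replicate 2 there were 6, and the calls of Trim34a, Trim35, Trim47, Trim59 and Trim6 were lost (adjusted p = 0.0528, 0.0692, 0.0599, 0.055 and 0.074).

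**Figure D1:**
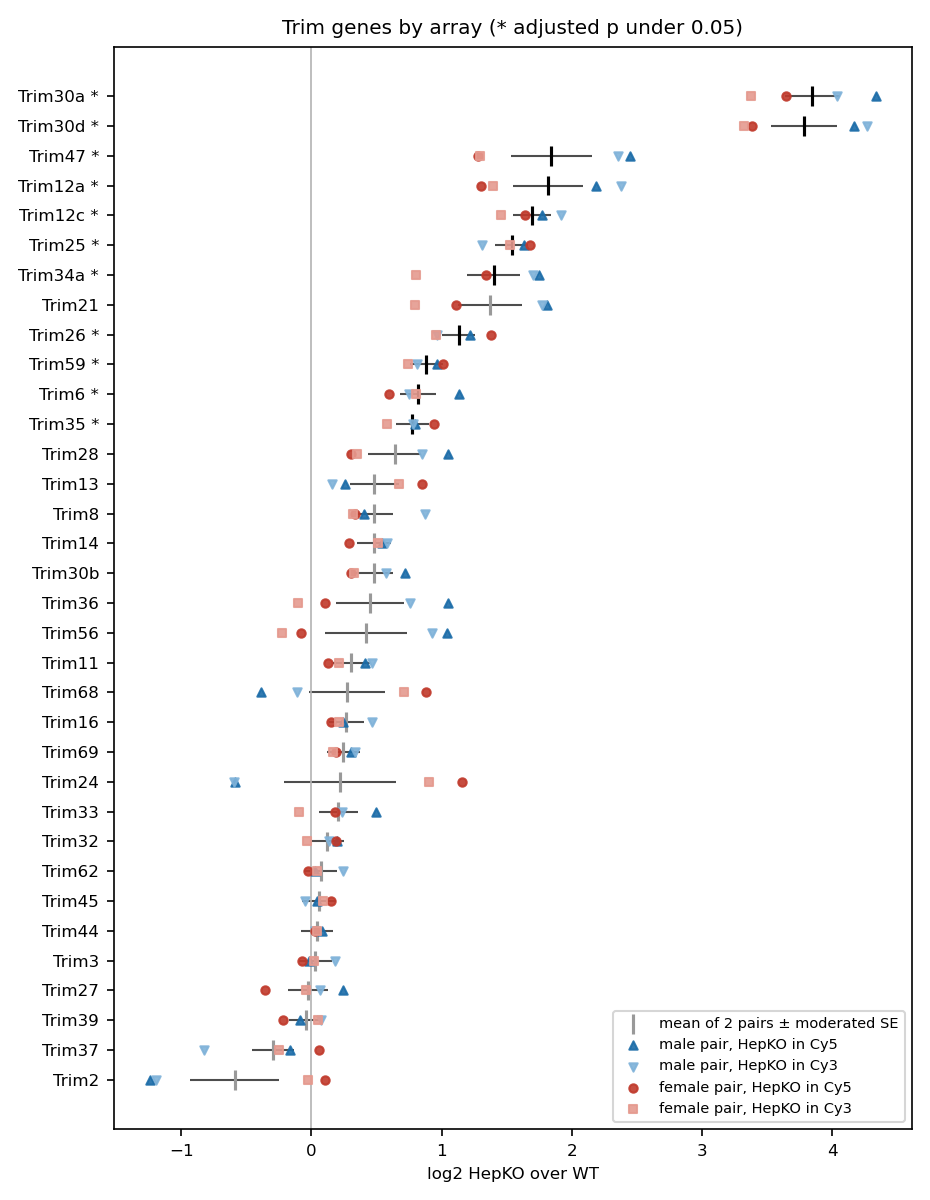
Log2 HepKO over WT of the 34 tested Trim genes, 1 row per gene, with each of the 4 arrays as a point and the mean of the 2 pairs as a vertical bar with its moderated SE. Asterisks mark the 11 genes with an adjusted p under 0.05, all to the right of 0. Trim30a and Trim30d lie above 3 on every array, and the points of Trim24, Trim68, Trim56 and Trim2 split by pair.

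The largest ratios in the family were those of Trim30a and Trim30d, both measured above background in both genotypes. Trim30a, an interferon-induced mouse gene known as a brake on Toll-like receptor signalling in macrophages, had levels of 12.11 and 12.34 in the male HepKO mouse and 11.16 and 11.27 in the female HepKO mouse, against 7.78 and 8.29 in the male and 7.51 and 7.89 in the female WT mouse. Every HepKO level was above every WT level. The ratio was 3.85 ± 0.21, or 14.4-fold (adjusted p = 0.018), and a second probe gave 3.69 ± 0.26 (adjusted p = 0.0193). Trim30d, its close paralog on the same chromosome, had levels of 11.91, 11.89, 10.81 and 10.77 in HepKO and 7.75, 7.63, 7.42 and 7.45 in WT, in the same order of arrays (male pair replicates 1 and 2, then female). The levels again did not overlap, and the ratio was 3.79 ± 0.25, or 13.8-fold (adjusted p = 0.0189). Both were larger in the male pair, with 4.19 for Trim30a and 4.22 for Trim30d, against 3.51 and 3.35 in the female pair. Trim30b, the other measured paralog, had a ratio of 0.48 ± 0.15 (adjusted p = 0.12). Its WT channels were not well above background on any array, which gives a bound of at least 1.34-fold higher in HepKO and no order against its paralogs. With the scanner software's own ratios it had 2.83 and was called (adjusted p = 0.0278). A probe of 1 paralog may also bind another, and probe sequences were not used here.

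A further 4 members of this chromosome 7 group were called. In the GRCm38.p6 annotation the order along the chromosome is Trim6, Trim34a, Trim5, Trim12a, Trim34b, Trim12c, Trim30b, Trim30c, Trim30a and Trim30d, a run of 10 genes of which 7 had a tested probe and 6 were called. Trim12a and Trim12c are mouse relatives of primate TRIM5, the restriction factor that binds retroviral capsids. Trim12a levels were 10.50, 10.66, 9.44 and 9.61 in HepKO and 8.31, 8.28, 8.13 and 8.21 in WT. The WT levels spanned 8.13 to 8.31, and the HepKO levels were lower in the female mouse. The ratio was 1.82 ± 0.27, or 3.52-fold (adjusted p = 0.0393). Trim12c levels were 9.15, 9.35, 8.94 and 8.93 in HepKO and 7.38, 7.43, 7.30 and 7.47 in WT. They gave 1.70 ± 0.15, or 3.25-fold (adjusted p = 0.0223), and the 2 pairs were close, at 1.85 and 1.55.

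Trim34a, a relative of human TRIM34, had levels of 10.99, 10.81, 10.02 and 9.69 in HepKO and 9.25, 9.11, 8.68 and 8.88 in WT. Its ratio was 1.40 ± 0.21, or 2.64-fold (adjusted p = 0.0395). All 3 of its probes were above 0 on every array. The second was called at 1.35 (adjusted p = 0.0328) and the third was not, at 0.86 (adjusted p = 0.0566). The brightest probe lost its call without female pair replicate 1 (adjusted p = 0.066). Trim6, whose human protein makes free ubiquitin chains that activate the kinase IKK epsilon, had a bound alone. Its levels were 7.07, 7.24, 6.76 and 6.97 in HepKO, and no WT array was well above background. At this probe and in the main setting that makes it at least 1.77-fold higher (0.82 ± 0.14, adjusted p = 0.0479). With the background model fitted on all spots Trim6 had a lower ratio of 0.64. With the scanner software's own ratios it had 3.70 (adjusted p = 0.0135), close to the 4.16 of Trim30a there. The 2 other tested Trim6 probes had 0.28 and 0.21 and were not called. The call was lost without female pair replicate 2 (adjusted p = 0.0524) and when the 2 arrays that carried HepKO in Cy5 were used alone (adjusted p = 0.0649).

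The promoters of these genes are shown because called and uncalled members are neighbours there. Promoter windows run from 250 bases before to 50 bases after the annotated start and come from the RefSeq annotation of GRCm38.p6, printed 5′ to 3′ on the gene's strand. Capitals mark the interferon-stimulated response element, the site bound by IRF factors and by the ISGF3 complex, searched as GAAANNGAAA on both strands, where N is any base. Trim30a lies at chr7:104465144-104465443 and Trim30d at chr7:104507800-104508099, Trim12c at chr7:104353300-104353599 and Trim30b at chr7:104358597-104358896, all on the minus strand. Trim34a lies at chr7:104244207-104244506 on the plus strand.
Trim30a: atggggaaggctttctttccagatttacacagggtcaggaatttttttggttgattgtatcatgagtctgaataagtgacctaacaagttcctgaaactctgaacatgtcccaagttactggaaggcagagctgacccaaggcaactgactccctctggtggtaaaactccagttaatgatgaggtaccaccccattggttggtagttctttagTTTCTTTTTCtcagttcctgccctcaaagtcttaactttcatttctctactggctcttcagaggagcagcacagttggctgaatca
Trim30d: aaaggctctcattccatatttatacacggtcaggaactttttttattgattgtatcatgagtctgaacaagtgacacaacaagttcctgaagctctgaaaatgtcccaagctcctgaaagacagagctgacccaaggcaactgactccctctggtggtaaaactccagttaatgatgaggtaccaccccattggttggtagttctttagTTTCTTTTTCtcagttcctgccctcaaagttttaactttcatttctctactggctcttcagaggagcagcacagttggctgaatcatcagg
Trim12c: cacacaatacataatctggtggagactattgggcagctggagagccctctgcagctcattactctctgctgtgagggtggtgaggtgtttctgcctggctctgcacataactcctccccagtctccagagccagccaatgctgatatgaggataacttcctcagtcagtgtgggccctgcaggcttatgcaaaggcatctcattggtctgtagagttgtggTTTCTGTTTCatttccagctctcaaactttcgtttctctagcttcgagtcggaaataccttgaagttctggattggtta
Trim34a: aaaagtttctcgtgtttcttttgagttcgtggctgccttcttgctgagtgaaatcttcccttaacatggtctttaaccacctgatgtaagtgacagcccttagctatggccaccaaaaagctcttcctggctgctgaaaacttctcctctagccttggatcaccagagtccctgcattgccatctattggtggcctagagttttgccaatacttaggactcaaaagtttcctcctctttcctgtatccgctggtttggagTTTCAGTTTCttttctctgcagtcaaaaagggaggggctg
Trim30b: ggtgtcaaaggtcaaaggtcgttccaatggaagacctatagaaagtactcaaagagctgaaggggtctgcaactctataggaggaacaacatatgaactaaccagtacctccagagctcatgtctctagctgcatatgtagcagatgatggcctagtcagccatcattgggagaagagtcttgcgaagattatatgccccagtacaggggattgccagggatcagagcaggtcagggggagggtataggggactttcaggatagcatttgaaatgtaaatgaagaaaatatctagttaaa
Counted from the annotated start, with bases before it negative, the element began at -36 in Trim30a, -41 in Trim30d, -29 in Trim12c and 10 in Trim34a. A second annotated start of Trim30a also held it, at 2. Trim30b held no match in its window. Over the window Trim30a and Trim30d were 90.8% identical and Trim12a and Trim12c 72.9%, while the other pairs among the 7 measured genes of the run lay between 46.8% and 54.9%. Trim30b was 49.9% identical to Trim30a and 47.5% to Trim30d. 3 further members with the element are shown as excerpts with 20 bases on either side, from chr7:104315456-104315505 (minus strand) for Trim12a, chr17:36836966-36837021 (plus strand) for Trim26 and chr7:102565434-102565489 (minus strand) for Trim21.
Trim12a: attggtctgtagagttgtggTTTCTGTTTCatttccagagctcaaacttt
Trim26: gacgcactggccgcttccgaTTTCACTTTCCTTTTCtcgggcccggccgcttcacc
Trim21: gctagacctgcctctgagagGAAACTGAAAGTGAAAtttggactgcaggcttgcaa
The element began at 10 in Trim12a. Trim26 held a pair of overlapping matches that began at -160 and -154, and Trim21 a pair that began at 13 and 19.

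Promoters were available for 39 of the 51 Trim genes. The element was present in 6 of 10 called Trim genes with a promoter (60%), namely Trim30a, Trim30d, Trim12a, Trim12c, Trim34a and Trim26, where any annotated start counts. All of these but Trim26 are neighbours in the chromosome 7 run. The windows of Trim30a and Trim30d (90.8% identical) and of Trim12a and Trim12c (72.9%) are alike, so the 6 are not separate cases. Trim25, Trim47, Trim59 and Trim6 held no match, and Trim35 had no promoter in the table. Among tested Trim genes that were not called, 2 of 16 (12.5%) held it, Trim21 and Trim2, the second of these at 1 of 5 starts. None of 13 untested Trim genes with a promoter did. Of all 32851 promoters 3.44% held it. By gene the shares were 8.14% of the 909 genes called higher, 3.55% of 8094 genes not called and 3.97% of 252 genes called lower. The GAS element of interferon gamma signalling, searched as TTCNNNGAA, which reads the same on both strands, was in 8.3% of promoters and in 0 of the 10 called Trim genes. Its letters are loose and it can overlap the other element. A match is a description of the letters in a window and no evidence of binding.

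**Figure D2:**
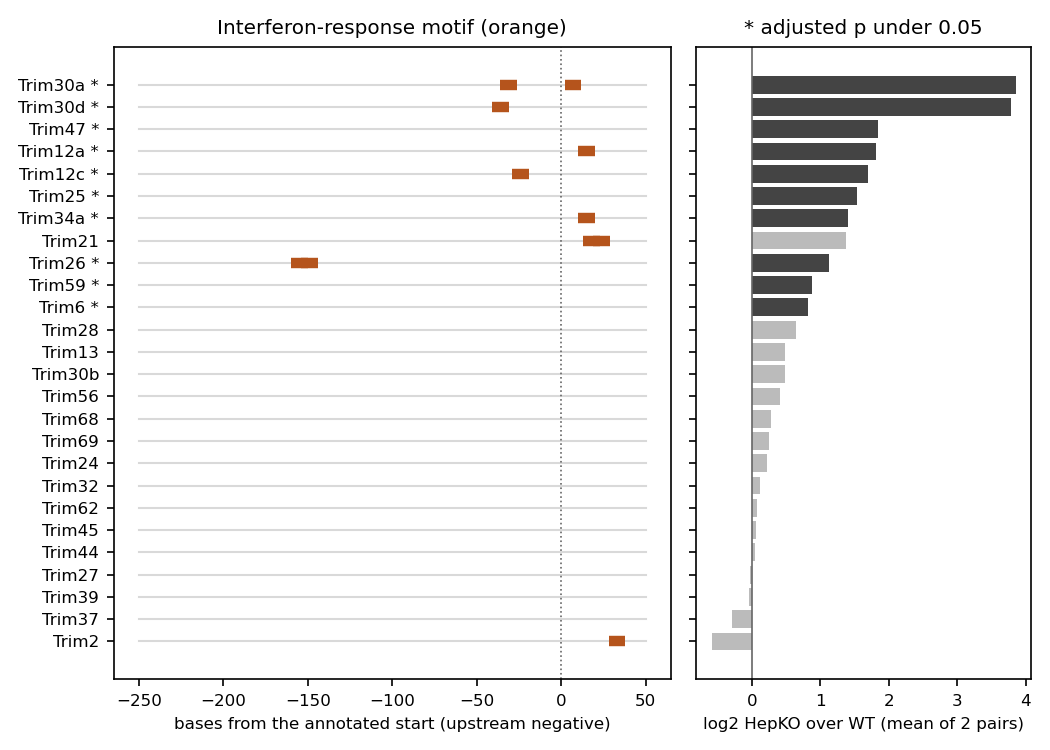
Left, matches to GAAANNGAAA on either strand (orange) in the promoter windows of the 26 tested Trim genes with a promoter, by distance in bases from the annotated start, with all starts of a gene on 1 line. Right, log2 HepKO over WT of the same genes (mean of 2 pairs, dark where the adjusted p was under 0.05). The element was found in 6 of the 10 called genes, in Trim21 and at 1 start of Trim2.

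Outside that run, members of RNA sensing also rose. Trim25, the ligase that ubiquitinates the RNA sensor RIG-I (Ddx58) and is itself interferon-induced, had levels of 13.64, 13.69, 13.45 and 13.68 in HepKO and 12.00, 12.37, 11.77 and 12.15 in WT. The ratio was 1.54 ± 0.13, or 2.91-fold (adjusted p = 0.0221), and the 2 pairs were nearly equal, at 1.48 (male) and 1.60 (female). A dimmer Trim25 probe had 1.70 ± 0.34 and was not called (adjusted p = 0.0591), at 2.31 (male) and 1.09 (female), so the probes differ in how far the pairs agree. Trim26, a ligase for nuclear IRF3 on chromosome 17, had levels of 10.57, 10.30, 10.38 and 10.13 in HepKO and 9.35, 9.34, 9.0 and 9.17 in WT. The levels did not overlap, and the ratio was 1.13 ± 0.13, or 2.19-fold (adjusted p = 0.0282). Of its Trim neighbours Trim15, Trim10 and Trim31, none was tested.

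Trim21, the cytosolic receptor for antibody-coated virus, missed the threshold. Its levels were 9.85, 9.71, 8.62 and 8.41 in HepKO and 8.04, 7.94, 7.51 and 7.61 in WT. All HepKO levels were above all WT levels, and the ratio was 1.37 ± 0.25, or 2.59-fold (adjusted p = 0.0523). It was called in 8 of 16 alternative settings, with adjusted p-values between 0.0286 and 0.165. Trim14, an adaptor of the mitochondrial protein MAVS that lacks a RING finger, had 0.48 ± 0.13 (adjusted p = 0.0969) and was above 0 on all 4 arrays. Trim56, a ligase of the DNA sensing pathway, had 0.42 ± 0.32 (adjusted p = 0.408), with 1.04 and 0.93 on the male arrays and -0.08 and -0.22 on the female arrays.

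By role, then, the antiviral and innate signalling members held most of the calls. In this class 8 of 12 tested genes were called higher, with a median of 1.39. Outside it 3 of 22 tested genes (13.6%) were called higher, with a median of 0.23, set against 10.2% and 0.08 over all genes. The 3 were Trim47, Trim59 and Trim35. The class was drawn up with earlier results of these data known, so its count is not independent evidence. It also holds all called genes of the chromosome 7 run.

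**Figure D3:**
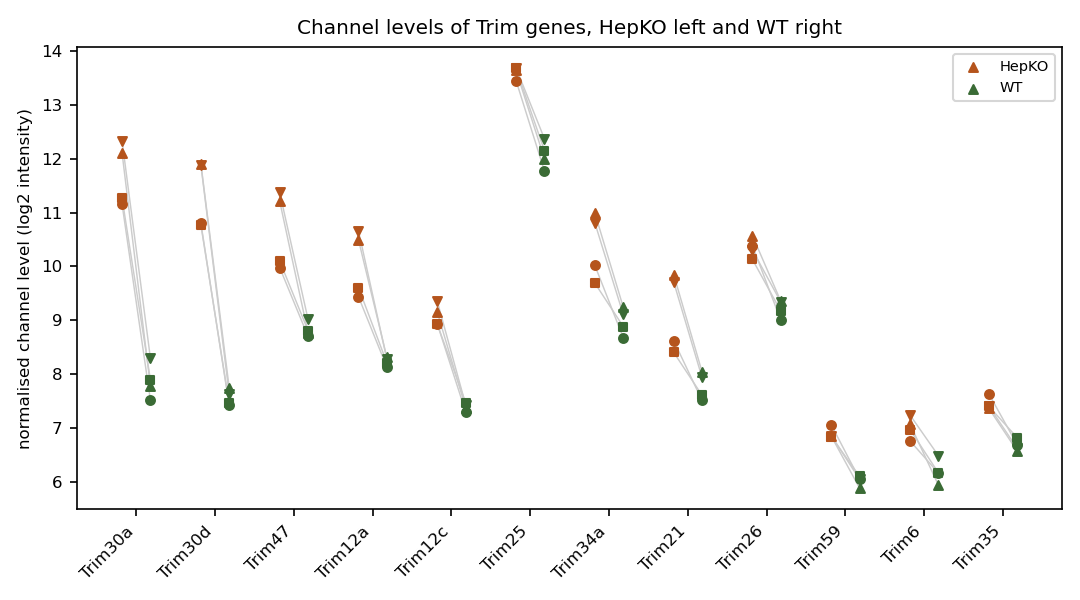
Normalised channel levels (log2 intensity) of the 11 called Trim genes and Trim21, HepKO left and WT right for each gene, with a line joining the 2 channels of an array. Upward and downward triangles are male pair replicates 1 and 2, circles and squares female pair replicates 1 and 2. For each of the 12 genes all 4 HepKO levels lie above all 4 WT levels, and the HepKO levels of Trim30a, Trim30d, Trim47, Trim12a and Trim21 split by pair while their WT levels lie closer together.

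Of the other PRY-SPRY members 2 of 9 tested genes were called, and the class median was 0.27. Trim47 had the largest ratio outside the antiviral class among genes above background in both genotypes. Its levels were 11.22, 11.38, 9.98 and 10.10 in HepKO and 8.77, 9.02, 8.70 and 8.81 in WT. The ratio was 1.84 ± 0.31, or 3.59-fold (adjusted p = 0.0476), with 2.40 in the male pair and 1.29 in the female pair, and it lost its call with robust variance moderation (adjusted p = 0.0528). Trim35, known to bind pyruvate kinase M2 in human cells, had levels of 7.36, 7.40, 7.63 and 7.40 in HepKO and 6.57, 6.62, 6.69 and 6.82 in WT. Its ratio of 0.78 ± 0.12, or 1.71-fold (adjusted p = 0.0437), was nearly equal in the pairs, at 0.79 and 0.76. A second probe had 0.50 (adjusted p = 0.0831), and the call was lost without female pair replicate 1 (adjusted p = 0.0667). The uncalled genes of the class were Trim11 (0.31), Trim68 (0.27), Trim16 (0.27), Trim69 (0.25), Trim62 (0.07), Trim27 (-0.02) and Trim39 (-0.04). Trim16, a RING-less member of the lysosomal damage response, and Trim69 were not well above background in any WT channel at the probes that stand for them, although an untested Trim16 probe was on 2 WT arrays and 1 HepKO array. The signs of Trim27 and Trim39 turned with median centring of the arrays.

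Among transmembrane members and other small subfamilies, 1 of 6 tested genes was called. Trim59, which carries a transmembrane segment, had levels of 6.85, 6.86, 7.06 and 6.84 in HepKO, and no WT array was well above background. At this probe and in the main setting it was at least 1.84-fold higher (0.88 ± 0.12, adjusted p = 0.0371), at 0.89 (male pair) and 0.88 (female pair). With the background model fitted on all spots Trim59 had a lower ratio of 0.71. A second probe had 0.55 (adjusted p = 0.118). With the scanner software's own ratios the gene had 3.99 (adjusted p = 0.0135), above the 1.87 of Trim47. Trim13, anchored in the endoplasmic reticulum, had 0.48 (adjusted p = 0.169). Trim8, a partner of the cytokine signalling inhibitor SOCS1, also had 0.48 (adjusted p = 0.117). Trim45 (0.06) and Trim44 (0.04) were near 0, and with the scanner software's own ratios both lay just below it. Trim37, whose human protein ubiquitinates peroxisomal and chromatin proteins, had -0.30 (adjusted p = 0.275).

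The chromatin corepressors with a PHD finger and bromodomain were not called. Trim28 (KAP1), the corepressor of KRAB zinc finger proteins that silences endogenous retroviruses, had levels of 11.52 to 12.17 in HepKO and 10.94 to 11.38 in WT. These did not overlap, but the ratio of 0.64 ± 0.20 missed the threshold (adjusted p = 0.123), at 0.95 (male pair) and 0.33 (female pair). Trim33, a ligase that acts on SMAD4, had 0.21 (adjusted p = 0.389). Trim24, a corepressor of retinoic acid receptor and a tumour suppressor of mouse liver, had -0.59 and -0.60 on the male arrays and 1.16 and 0.90 on the female arrays, for a mean of 0.22 ± 0.43 (adjusted p = 0.753). Its HepKO levels were 10.77, 10.88, 10.31 and 10.31 and its WT levels 11.36, 11.48, 9.15 and 9.41. The WT mice differed by more than the HepKO mice did.

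The NHL repeat members, which include RNA-binding and neuronal ligases, had a median of 0.03 over 3 tested genes. Trim2, a ligase of neurofilament light chain, had the lowest ratio of the family at -0.59 ± 0.34 (adjusted p = 0.303). It was -1.24 and -1.19 on the male arrays and 0.11 and -0.03 on the female arrays, and a second probe gave the same split with a mean of -0.62. Trim32 (0.12) and Trim3 (0.03) were near 0, and Trim3 fell below it in 4 of 16 alternative settings. Trim36, the only tested gene among the COS box and muscle members, was not well above background on any WT array. As a mean of the 2 pairs it was at least 1.37-fold higher in HepKO (0.45 ± 0.26, adjusted p = 0.299). Its ratios were 1.05 and 0.76 on the male arrays and 0.10 and -0.10 on the female arrays, so the bound does not hold in the female pair. With the scanner software's own ratios Trim36 had 2.98 and was likewise not called (adjusted p = 0.0843).

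The HepKO over WT ratio was larger in the male pair for 26 of 34 Trim genes (76.5%), against 47.7% of all genes, and for 9 of the 11 called ones. The male pair had a median Trim ratio of 0.60 and the female pair one of 0.33. The ratios of a pair's 2 dye orientations differed by a median of 0.16 and at most 0.66 for a Trim gene, and the pairs differed by more than that in 10 genes. These were Trim24, Trim2, Trim56, Trim47, Trim68, Trim12a, Trim36, Trim30d, Trim21 and Trim30a. Each pair is 1 replicate, and no difference between pairs was tested. All 4 arrays were above 0 for 21 of 34 Trim genes (61.8%), against 39.4% of all genes. Every HepKO level was above every WT level in 17 of 34 Trim genes and in none was every HepKO level below, against 30.8% and 17.1% of all genes. Of the 17, 5 had passed the filter through the HepKO channels alone, and among genes above background throughout the count was 12 of 27, against 28.2% of all such genes.

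**Figure D4:**
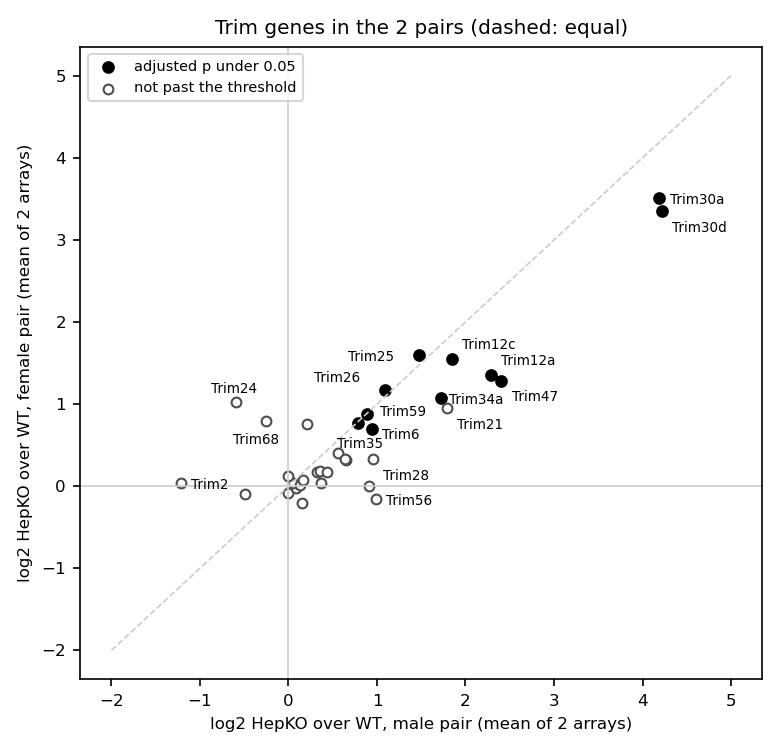
Log2 HepKO over WT of the 34 tested Trim genes in the female pair (vertical) against the male pair (horizontal), each the mean of 2 arrays. Filled points had an adjusted p under 0.05, and the dashed line marks equal ratios. Of the 11 filled points 9 lie below the line, and Trim24 and Trim68 lie left of 0 in the male pair and above 0 in the female pair.

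4 lists of partners were set beside the Trim genes. Of TRIM genes that carry other symbols, 2 of 4 tested were higher. Pml, the organiser of nuclear bodies, had 2.20 ± 0.32 (adjusted p = 0.0377) and Mid1, a microtubule-bound ligase, 0.78 ± 0.13 (adjusted p = 0.0481), while Mefv, which encodes pyrin, had 1.44 (adjusted p = 0.0739) and Mid2 0.36. Of the sensing partners on which antiviral TRIM proteins act, 8 of 18 were higher and none lower, with a median of 0.93. The interferon regulatory factor Irf7 (4.05), the RIG-I-like receptors Dhx58 (3.21) and Ifih1 (2.39) and the RNA-binding Zc3hav1 (2.15) led them, and Ddx58, Rnf135, Ifi35 and Nmi were the others. Irf7 is also among the interferon response genes counted below, and without it the median of the sensing partners was 0.86. The adaptor Mavs (-0.27) and Irf3 (-0.17) were not called. Of ubiquitin-conjugating E2 enzymes, which load the RING ligases, 3 of 21 (14.3%) were higher with a median of 0.17, near the 10.2% and 0.08 of all genes. They were Ube2c (3.41) and Ube2s (1.43), partners of the anaphase-promoting complex, and Ube2l6 (1.44), the E2 of ISG15. Of 12 interferon response genes 11 were higher, with a median of 4.14, led by Rsad2 (6.71), Ifit1 (5.29), Ifi44 (4.99) and Isg15 (4.94).

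Many markers of other liver cells were also higher in HepKO, to be set against 10.2% higher and 2.83% lower over all genes. Of 20 macrophage markers 16 were higher, and their summed level was 105484 to 114279 in HepKO and 11773 to 28909 in WT channels. Their largest ratios were Marco (4.26), Fcgr1 (3.28), Ctss (3.26) and Cybb (2.86), and Itgam was not well above background in WT. The male pair had a macrophage median of 2.42 and the female pair one of 1.74. Lymphocyte (0.99 male, 0.85 female), neutrophil (1.39, 0.41) and dendritic cell markers (0.70, 0.26) had the same order. Endothelial (0.81 male, 1.11 female), cholangiocyte (0.41, 0.81), erythroid (0.17, 0.36) and hepatocyte markers (-0.33, -0.06) had the reverse order. Stellate cell and fibroblast markers were nearly equal (0.77 male, 0.74 female). Of 19 lymphocyte markers 11 were higher, led by Gzmb (2.83), Ptprc (2.77), Il2rb (2.23) and Nkg7 (2.20), with sums of 4518 to 6671 in HepKO and 1394 to 1877 in WT. Among them Cd2, Gzma, Klrd1, Klrb1c, Ncr1, Prf1 and Ms4a1 were not well above background on any WT array. Of 17 endothelial markers 11 were higher, led by Cd34 (2.61), Lyve1 (2.07), Egfl7 (1.88) and Emcn (1.31), with sums of 21298 to 21828 in HepKO and 8162 to 11949 in WT, and Vwf was not well above background in WT.

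The smaller lists also held higher members, to be set against 10.2% higher and 2.83% lower over all genes. These were 5 of 14 stellate cell and fibroblast markers (sums of 18848 to 21561 in HepKO and 10233 to 11211 in WT), led by Col3a1 (2.14), Col1a2 (1.62), Col1a1 (1.45) and Hand2 (0.99). They were also 3 of 12 neutrophil markers, S100a9 (3.21), Lcn2 (1.98) and S100a8 (1.21), with sums of 3177 to 5757 in HepKO and 979 to 1392 in WT. Elane, Camp, Mmp8, Mmp9 and Retnlg were not well above background in WT. Of 9 dendritic cell markers Bst2 (2.59), Itgax (1.60) and Batf3 (0.83) were higher (sums of 87675 to 101114 in HepKO and 13598 to 18492 in WT), with Clec9a and Siglech not well above background in WT. Bst2 is also in the interferon list, and without it the sums were 1062 to 1266 in HepKO and 620 to 786 in WT and the median 0.40. Flt3 (0.34), Clec9a (0.26), Zbtb46 (0.10) and Xcr1 (-0.03) were not called. Of 9 cholangiocyte markers Spp1 (3.96), Bicc1 (3.39) and Cd24a (1.51) were higher (sums of 5268 to 8904 in HepKO and 1978 to 2681 in WT), and Epcam was not well above background in WT. Of 5 erythroid markers Hba-a1 (3.27) was higher and Alas2 (-0.90) lower, with sums of 2438 to 10306 in HepKO and 1699 to 8518 in WT, and Slc4a1 was not well above background in WT. Of the 17 hepatocyte markers Hpx (1.67) was higher, Cyp2e1 (-2.38) and Apoa2 (-1.42) were lower, and the median was -0.12. The part of these cells in the Trim ratios was not tested.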

How the data were processed

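RNA of 4 mice was measured on 4 two-colour Agilent arrays, and groups and dyes were taken from the labels. Per the file headers, the scans were processed in Agilent Feature Extraction 10.2.1.3. From it the deposited intensity of each spot (mean signal, and median of the local background) was taken for both channels, before any subtraction. The deposited log10 ratios of that software, background-subtracted and dye-normalized per the file headers, and the authors' value table of log10 ratios served as alternatives. The table's columns correlated at 1 or -1 with the scanner ratios of their own array and run as HepKO over WT, with column medians of 0. Per the file headers, the deposited other columns include the flags for outlier spots and for signal well above background. Further steps by the authors are not given in the sources used here.

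Signals were corrected with normexp (offset 50) and normalized by loess within arrays with limma 3.58.1 (R 4.3.3). The 1639 control spots among 45018 were given weight 0, and 178 to 260 spots per array that were non-uniform, population outliers or on a non-uniform background were left out beforehand. That rule was taken over with earlier results of these data known, as were the Trim classes, gene lists and the members themselves. Female pair replicate 2 had a local green background of up to 41156.5, against a median of 29. Spots of a probe, then the 2 arrays of a pair, were averaged. Probes well above background on both arrays of a pair in either genotype were kept. RefSeq accessions named 22951 probes (55.7%) through the GRCm38.p6 table, which served for names, gene order and promoter sequences only. Levels are channel values after Aquantile scaling between arrays. A fold written "at least" sets the bright genotype against the higher of the dim probe's own level and the lowest level of any probe well above background on that array. It holds for that probe in the main setting alone and is open to residual dye bias.

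The test was an intercept fit of limma on 2 pair values with moderated variances, adjusted over 22807 probes. Precision is limited by the number of pairs (n = 2). The mice of a pair are single animals, so p-values rest on the spread between 2 pairs, moderated toward the spread pooled over all tested probes. The pooled spread had 2.85 prior degrees of freedom. Where the 2 pairs of a gene nearly agree, its SE therefore comes mostly from the pooled spread. The fit was also run on simulated arrays with known changes, where every changed probe came out in the right direction. That check covered brighter probes only and is no support for single calls. All tested Trim genes are named, with full values for those called or with a mean log2 ratio of at least 1 in size, and the 4 largest called members of other lists. Lists are described by counts and medians without a test.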

Additional observations from a re-analysis of the deposited data

Results flagged for a closer look

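In 4 of 34 Trim genes (11.8%, against 8.46% of all genes) both arrays of one pair lay above 0 and both of the other below it. The difference between pairs was not tested, since each pair is 1 replicate, and slide, age and sex cannot be told apart. Trim24 was -0.59 in the male pair and 1.03 in the female one, a male minus female difference of -1.62. Trim68, a coactivator of the androgen receptor in human cells, was -0.25 (male) and 0.80 (female) (difference -1.05). Trim56 was 0.99 (male) and -0.15 (female) (difference 1.14). Trim27 was 0.15 (male) and -0.20 (female) (difference 0.36). The pairs split in this way with a difference of at least 1 in 3 of 34 Trim genes (8.82%, all of the 4 but Trim27), against 1.25% of all genes.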

How the results depend on the processing

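The counts of called probes and Trim genes and each of the 34 Trim ratios were recomputed under 16 alternatives (15 for genes with no tested probe in 1 of them), of which leaving out spots with a background population flag was chosen after seeing the data. Lists, classes, promoter shares and counts of pairs and levels were not. No Trim gene was called lower in any. The count of 11 higher Trim genes became 0 with normexp fitted on all spots and 0 with no filter on dim probes (smallest adjusted p in limma 0.0599 and 0.0716, with 5559 and 9622 probes at an unadjusted p under 0.05), and 0 probes were called in either direction in both. The setting with no filter tested 41118 probes in place of 22807, and the cause in the other was not tested. Leaving out 1 array gave 6 to 12 Trim genes, 990 to 2170 higher probes and 274 to 1070 lower probes, the lowest of each without male pair replicate 2. In the remaining settings 10 to 14 Trim genes were called. Probes called lower numbered 682, but 1334 with Feature Extraction ratios, 1305 with the authors' table, 427 with 1 probe per gene and 1267 on arrays with HepKO in Cy3. Median centring moved the median of all probes to 0.13, against 0.02, and gave 2271 higher and 463 lower probes against 1672 and 682. Feature Extraction ratios moved that median to -0.09. They and the authors' table gave dim genes larger ratios, such as 3.99 with the first for Trim59, 3.70 for Trim6, 2.98 for Trim36, 2.83 for Trim30b, 2.12 for Trim16, 1.88 for Trim69 and 1.40 for Trim35, and called Trim16, Trim69 and Trim30b higher. Values that turned sign were of uncalled genes. Trim3 was -0.14 with Feature Extraction ratios and with the table, -0.043 on arrays with HepKO in Cy5 and -0.019 to 0.081 when 1 array was left out. Trim44 was -0.056 and Trim45 -0.15 with both sources. Trim27 was 0.20 with median centring, 0.011 on arrays with HepKO in Cy3 and -0.102 to 0.055 when 1 array was left out. Trim39 was 0.14, 0.062 and -0.113 to 0.023 in these settings. The main fit is already paired, because each ratio is the difference within a pair, so no separate paired setting was run. Dim signal limits Trim6, Trim16, Trim30b, Trim36, Trim59 and Trim69, since the probe that stands for each did not exceed background in any WT channel.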
